A study of Sus scrofa with 92 samples.

Results

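Ribosome biogenesis factors are the enzymes, chaperones and scaffold proteins that build ribosomes in the nucleolus. RNA polymerase I copies the ribosomal RNA (rRNA) genes, small nucleolar ribonucleoproteins (snoRNPs) guide the chemical modification of the transcript, and assembly factors cut, fold and export the small and large subunits. The programme is a large part of the cost of growth, and in liver it is known for rising when hepatocytes enlarge, regenerate or answer growth and stress signals. The rule named 32 such genes by symbol and used no measured value to name them. The genes were, however, chosen with earlier results of these data known. The rule kept those whose CPM, the counts of a gene scaled to a fixed library size, summed to at least 10 over the libraries used. It left 25 of 32 genes, among 13667 of 25322 identifiers in the table. Of the other 7, NHP2 and UTP14A had no identifier in the name table, NOP10 and TSR1 had an identifier that has no row in the counts, GAR1 and BOP1 were listed at 0 counts in every library, and WDR43 had 90 counts in all, in 46 of 88 libraries.

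The data are read counts per gene from RNA sequencing of liver biopsies of juvenile male pigs of a Yorkshire and Landrace cross. Every animal was fasted overnight and splenectomized, then underwent blunt chest injury, liver crush injury, hemorrhage and staged resuscitation. The 18 fasted (FS) animals were given no feed, and the 5 carbohydrate prefed (CPF) animals received a bolus of sugar syrup before the injury. Each animal was sampled at Baseline (B) and at 2, 8 and 20 hours of full resuscitation (FR2, FR8 and FR20), so the groups hold 15 FS and 5 CPF libraries at B, 18 and 5 at FR2, 18 and 4 at FR8, and 18 and 5 at FR20. 3 FS and 2 CPF animals were labelled as having died. No uninjured animals were analysed here, so time after injury, anesthesia, surgery and repeated biopsy cannot be told apart.

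The 88 libraries used held 6877117 to 16613261 counts, with a median of 12071957. The FR8 library of CPF animal 3 held 4388 counts and was left out, as were the Baseline libraries of FS animals 17, 19 and 21, in which albumin stood at 0.2 to 52.73 CPM against 13202 to 168246 CPM in the libraries used. Some libraries also went against their labelled time. Over the 13642 tested genes that are no members, each library was compared with the mean time courses of the FS animals that had a Baseline library, its own animal left out, by Pearson's r across genes, which are not independent replicates. Of the 88 libraries, 71 were most like their labelled time and 17 were most like another. In FS animals 17, 19 and 21 this held for all 9 libraries and in the same order: the libraries labelled FR2 were most like FR8 (r = 0.39, 0.22 and 0.47), those labelled FR8 most like Baseline (r = 0.67, 0.54 and 0.68) and those labelled FR20 most like FR2 (r = 0.45, 0.42 and 0.54). In FS animal 10 the libraries labelled B, FR2 and FR8 were most like FR8, FR20 and FR2 (r = 0.49, 0.55 and 0.50), and the library of CPF animal 13 labelled FR20 was most like Baseline (r = 0.51). The remaining 4 were the library of FS animal 4 labelled B, those of FS animal 9 labelled FR8 and FR20, and that of FS animal 20 labelled FR20. Labels were kept as deposited, and the time comparisons are given below with all 88 libraries and again with the 71. The 71 were chosen after the data were seen, by their likeness to their time point, which by itself widens differences between times over all genes.

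At FR2 almost the whole set of ribosome biogenesis factors was higher than at Baseline in FS animals. By the quasi-likelihood test of edgeR, with p adjusted over all 13667 genes by the Benjamini-Hochberg method, 23 of 25 members rose and 0 fell, where 20.3% of all genes rose and 21.1% fell. The median log2 fold change of the members was 0.67, against -0.04 over all genes, with a range of -0.20 to 0.96. In this fit no member passed with a change of at least 2-fold, where 11% of all genes did. Over the other fits described below some members went above a log2 fold change of 1, such as DKC1 (at most 1.22) and RRP12 (at most 1.12). With the 71 libraries 24 members rose, against 23.9% of all genes, with a median of 0.83. In whole biopsies, fewer cells of a type and less RNA per cell cannot be told apart, and this holds for each result here.

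**Figure D1:**
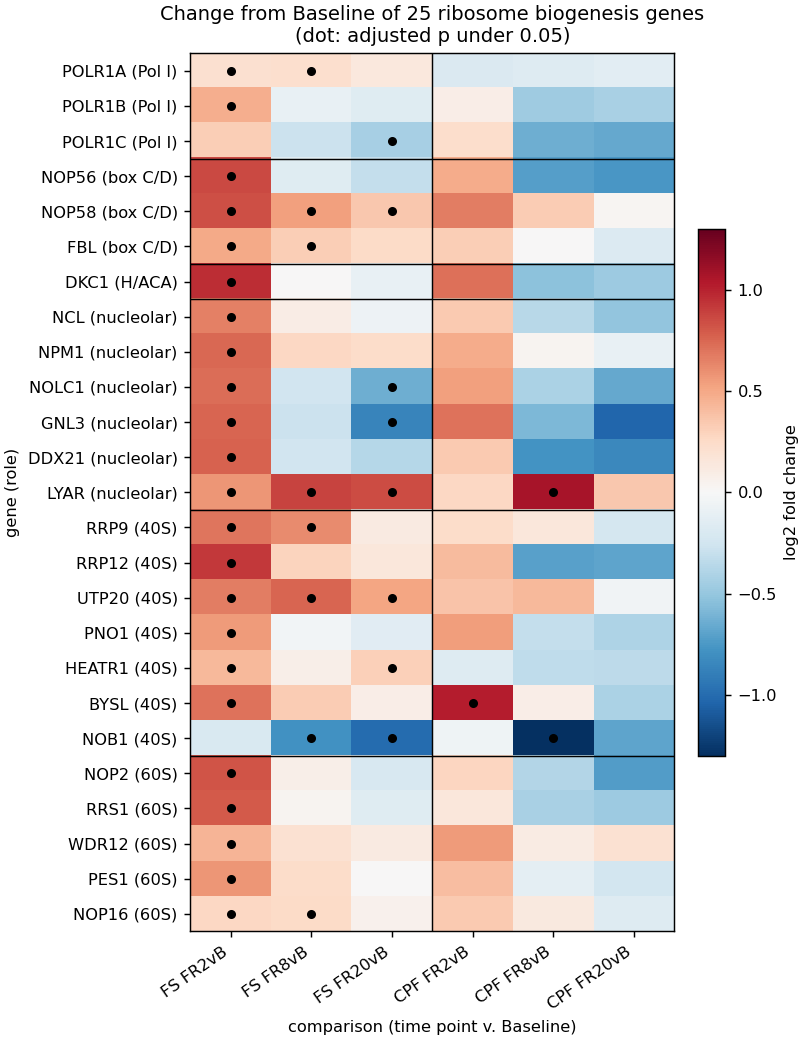
Log2 fold change from Baseline of the 25 measured ribosome biogenesis factors (rows, by role) at FR2, FR8 and FR20 in FS and CPF animals (columns), with a dot where the adjusted p was under 0.05 by edgeR's quasi-likelihood test. The FS FR2 column is above 0 in 24 of 25 rows, while the FR20 columns hold values on both sides of 0, from -1.00 to 0.85 in FS animals.

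The largest change relative to its error among the box C/D snoRNP proteins, which carry the rRNA methylation machinery, was that of the core protein NOP58 (ENSSSCG00000022225). NOP58 stood at 33.4 to 62.6 CPM in the 15 FS Baseline libraries (median 39.1) and at 38.6 to 124 CPM in the 18 libraries labelled FR2 (median 74). The groups overlapped at their edges: the 5 lowest FR2 values came from FS animals 19, 11, 10, 17 and 21, of which 4 are animals whose libraries went against their labels. The fitted change was 0.84 ± 0.14 (log2, SE), or 1.79-fold, with an adjusted p of 2.22e-06 and a rise in 13 of 15 animals. NOP56, its partner in the same particle, rose by 0.86 ± 0.22 (adjusted p = 0.00119), and the methyltransferase fibrillarin, FBL, by 0.49 ± 0.12 (adjusted p = 5.60e-04), so all 3 box C/D proteins rose.

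Among the nucleolar scaffolds, chaperones and helicases, 6 of 6 rose, by 0.57 to 0.77. NPM1 (ENSSSCG00000016998), nucleophosmin, an abundant nucleolar chaperone, stood at 282 to 554 CPM at Baseline (median 448) and at 505 to 969 CPM at FR2 (median 675). The overlap was narrow, and every one of the 15 animals with both libraries was higher at FR2 (0.75 ± 0.13, 1.68-fold, adjusted p = 3.42e-06). Nucleolin (NCL), which binds nascent rRNA, rose by 0.66 ± 0.16 (adjusted p = 5.42e-04) and the helicase DDX21 by 0.77 ± 0.19 (adjusted p = 7.81e-04). The snoRNP chaperone NOLC1 rose by 0.73 ± 0.21 (adjusted p = 0.00442) and the nucleolar GTPase GNL3, nucleostemin, by 0.76 ± 0.27 (adjusted p = 0.0174). LYAR, a zinc finger protein of the nucleolus, rose by 0.57 ± 0.19 (adjusted p = 0.0129). The LYAR call was lost without FS animals 17, 19 and 21 (0.36 ± 0.16, adjusted p = 0.0558) and held with the 71 libraries (0.45 ± 0.13, adjusted p = 0.00333).

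Of the 7 factors of small subunit processing, 6 rose. RRP12 (ENSSSCG00000010514), which takes part in the export of pre-ribosomal subunits, went from 18.3 to 46.1 CPM at Baseline (median 21.4) to 16.1 to 68 CPM at FR2 (median 46.1). Its lowest FR2 values were again those of the libraries labelled FR2 from FS animals 19, 10 and 17, and the change was 0.92 ± 0.17 (1.89-fold, adjusted p = 2.17e-05, higher in 14 of 15 animals). The processome proteins UTP20, RRP9 and HEATR1 rose by 0.67 ± 0.14, 0.70 ± 0.17 and 0.42 ± 0.11 (adjusted p = 6.92e-05, 8.37e-04 and 0.00107). The late-acting factors BYSL, bystin, and PNO1 rose by 0.71 ± 0.17 and 0.55 ± 0.15 (adjusted p = 6.81e-04 and 0.0029). The exception was NOB1, the endonuclease that makes the last cut on the small subunit rRNA, at -0.20 ± 0.20 (adjusted p = 0.44, higher in 8 of 15 animals).

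All 5 factors of large subunit processing rose. The rRNA methyltransferase NOP2 changed by 0.82 ± 0.17 (adjusted p = 1.34e-04) and RRS1, a loading factor of early large subunit assembly, by 0.80 ± 0.19 (adjusted p = 4.38e-04). PES1 and WDR12, which work in a complex with BOP1, rose by 0.57 ± 0.13 and 0.44 ± 0.11 (adjusted p = 2.41e-04 and 7.01e-04). NOP16 had the smallest rise among these, 0.27 ± 0.07 (adjusted p = 0.00289), though in 14 of 15 animals.

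The 3 RNA polymerase I subunits had the lowest median change of the roles, 0.32. POLR1B and POLR1A, its 2 largest subunits, rose by 0.47 ± 0.12 and 0.21 ± 0.09 (adjusted p = 0.00131 and 0.048), and the POLR1A call was lost in 13 of the 18 fits that left out 1 FS animal. POLR1C, which RNA polymerase III also uses, was at 0.32 with an adjusted p of 0.0845, and with the 71 libraries it passed at 0.47 ± 0.12 (adjusted p = 6.15e-04). DKC1, dyskerin, the pseudouridine synthase and the 1 measured protein of the box H/ACA particle, rose by 0.96 ± 0.34 (adjusted p = 0.0181). DKC1 read exactly 0 in the FR2 and FR8 libraries of FS animal 11, in which 482 (9.84%) and 479 (9.78%) of 4896 well counted genes were at 0, against at most 1 in any other library. It was the 1 member at 0 there, and without those 2 libraries its change was 1.18 ± 0.22 (adjusted p = 2.68e-05).

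**Figure D2:**
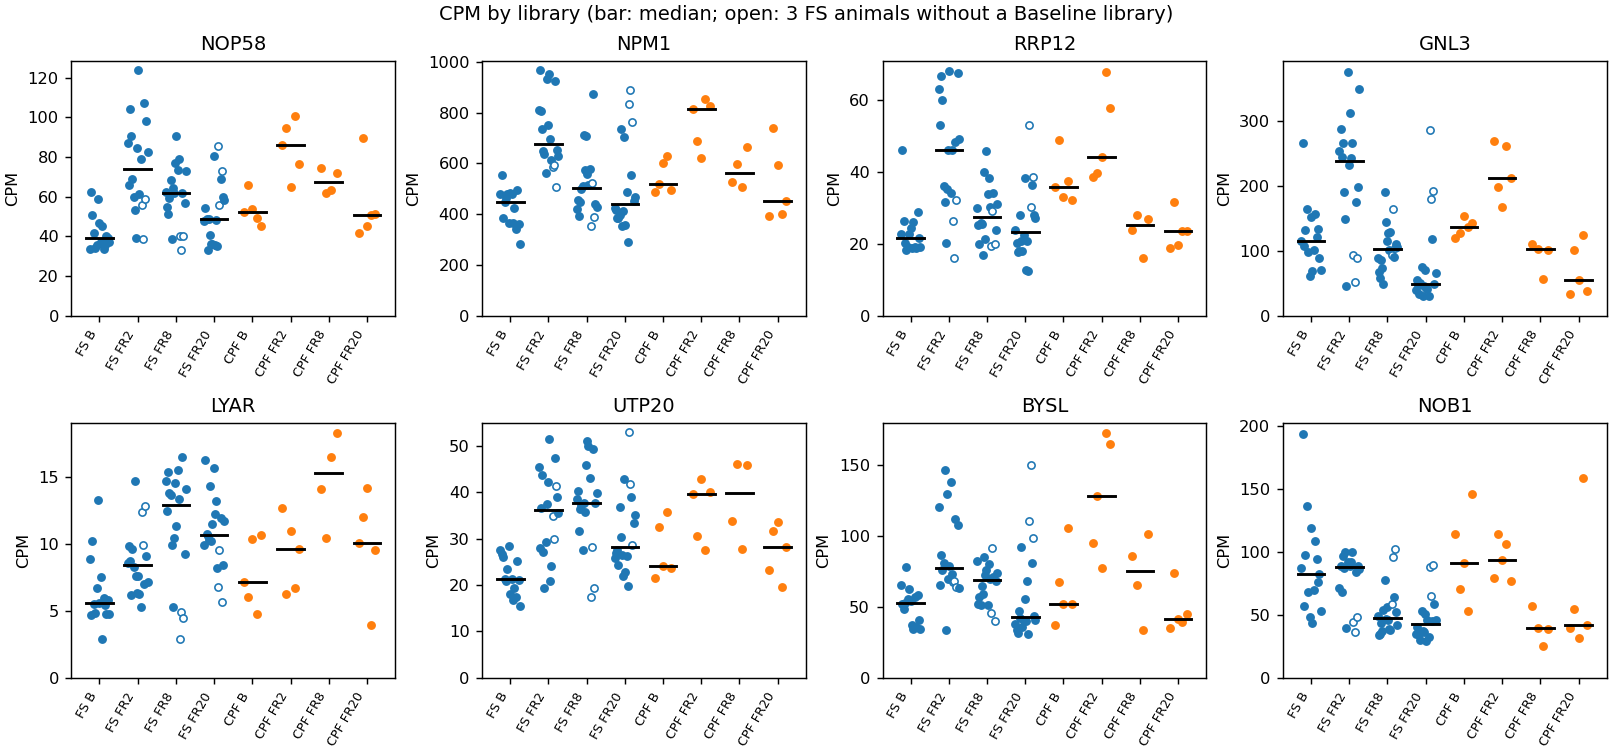
CPM of 8 ribosome biogenesis factors in each library at B, FR2, FR8 and FR20, for FS and CPF animals, with a bar at the median and open circles for FS animals 17, 19 and 21. NOP58 and NPM1 sit highest at FR2 in FS animals (medians 74 and 675), LYAR is highest at FR8 (median 12.9), and NOB1 falls from a median of 82.1 at B to 42.4 at FR20.

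By FR8 the set was near its Baseline level in FS animals, with some members above it and 1 below. At FR8 against Baseline 7 of 25 members were higher and 1 was lower, where 19.9% of all genes rose and 19.5% fell, and the median was 0.10 against -0.00 over all genes. The 3 with the smallest adjusted p were UTP20, LYAR and NOP58. UTP20 (ENSSSCG00000000869) stood at 15.5 to 28.4 CPM at Baseline (median 21.2) and 17.5 to 51 CPM at FR8 (median 37.7). Its 2 lowest FR8 values, 17.5 and 19.4, were those of the libraries labelled FR8 from FS animals 17 and 21, and it was higher in 15 of 15 animals with a Baseline library (0.76 ± 0.13, 1.69-fold, adjusted p = 1.03e-05). LYAR (ENSSSCG00000008729) went from 2.9 to 13.3 CPM (median 5.58) to 2.9 to 16.5 CPM (median 12.9). Its 4 lowest FR8 values came from FS animals 17, 21, 19 and 10, and the next lowest was 9.27 (0.88 ± 0.19, 1.84-fold, adjusted p = 1.33e-04, higher in 14 of 15). NOP58 was at 32.9 to 90.5 CPM (median 61.8), still 1.45-fold above Baseline (0.53 ± 0.14, adjusted p = 0.00124). RRP9 (0.61, adjusted p = 0.00316), NOP16 (0.25, adjusted p = 0.00555), FBL (0.32, adjusted p = 0.0266) and POLR1A (0.22, adjusted p = 0.0462) were the other 4, of which FBL and POLR1A lost their calls in 6 and 13 of the 18 fits that left out 1 FS animal.

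NOB1 (ENSSSCG00000002753) was the member that fell. It stood at 43.6 to 194 CPM at Baseline (median 82.1) and 34 to 102 CPM at FR8 (median 47.6). The 3 highest FR8 values, 102, 95.5 and 77.3, were those of FS animals 21, 19 and 10, and NOB1 was lower in 13 of 15 animals (-0.79 ± 0.20, 0.58-fold, adjusted p = 0.00135). With the 71 libraries 11 members were higher and 4 lower at FR8 (27.9% and 26.8% of all genes), the lower ones being NOB1 at -1.04 ± 0.16, POLR1C at -0.44 ± 0.12, DDX21 at -0.35 ± 0.14 and NOLC1 at -0.31 ± 0.13. LYAR was then 1.27 ± 0.13 and UTP20 0.95 ± 0.13 above Baseline.

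Most of the members then fell from FR2 to FR8. In FS animals 16 of 25 members fell and 0 rose between FR2 and FR8, where 13.9% of all genes fell and 14.5% rose, with a median of -0.56 against -0.00 over all genes. NOP56 (-1.02 ± 0.21, adjusted p = 2.43e-04), GNL3 (-1.04 ± 0.26, adjusted p = 0.00163) and DDX21 (-1.03 ± 0.18, adjusted p = 4.31e-05) fell by at least 2-fold, as 5.96% of all genes changed. LYAR and UTP20 did not follow them, at 0.31 ± 0.18 and 0.09 ± 0.13 (adjusted p = 0.187 and 0.65). In the fit to the 71, 19 fell and LYAR rose by 0.81 ± 0.13 (adjusted p = 4.71e-07), against 24.1% and 24.8% of all genes.

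At FR20 the reading depended on the libraries that went against their labels. With all of them 4 of 25 members were higher and 4 lower than at Baseline in FS animals, where 17.4% of all genes rose and 16.4% fell, and the median was 0.00 against 0.04 over all genes. With the 71 libraries 3 were higher and 11 lower, where 23.6% of all genes rose and 21% fell, and the median was -0.19 against 0.05. LYAR, UTP20 and HEATR1 were higher in both fits, and NOB1, GNL3, NOLC1 and POLR1C lower in both. The POLR1C call (-0.43 ± 0.16, adjusted p = 0.0263) was lost without FS animal 1, 2, 5 or 6. Without the 5 animals that died 3 members were higher and 1 was lower, the calls of GNL3, NOLC1, POLR1C and NOP58 being lost, and without the animal terms 2 were higher and 2 lower, those of GNL3, NOLC1, HEATR1 and NOP58 being lost. NOP58 was higher with all libraries (0.35 ± 0.14, adjusted p = 0.0452, higher in 8 of 15 animals) and lost its call in 11 of the 18 fits that left out 1 FS animal. The 7 members lower with the 71 libraries alone were POLR1B, NOP56, NCL, DDX21, PNO1, NOP2 and RRS1, at -0.70 to -0.32.

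LYAR at FR20 was at 5.66 to 16.3 CPM (median 10.7), 1.8-fold above Baseline (0.85 ± 0.19, adjusted p = 2.80e-04, higher in 14 of 15), and UTP20 was at 19.8 to 53 CPM (median 28.1), 1.42-fold above it (0.51 ± 0.14, adjusted p = 0.00277). HEATR1, a processome protein also needed for rRNA transcription, went from 36 to 91.8 CPM (median 45.8) to 35.8 to 84.9 CPM (median 58.7). The HEATR1 ranges overlapped throughout, 10 of 15 animals were higher, and the change of 0.31 ± 0.11 (adjusted p = 0.0196) did not pass when any of FS animals 1, 4, 6 and 12 was left out. NOB1 was at 29.4 to 89.2 CPM (median 42.4), which is 0.501-fold of Baseline (-1.00 ± 0.20, adjusted p = 1.01e-04), and lower in 14 of 15 animals.

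GNL3 (ENSSSCG00000011449) went from 60.4 to 265 CPM at Baseline (median 115) to 29.7 to 286 CPM at FR20 (median 49.2). The 4 highest FR20 values, 286, 192, 179 and 118, were those of FS animals 17, 21, 19 and 20, each a library most like another time, and the next was 75.2. The change was -0.86 ± 0.28 (adjusted p = 0.0141, lower in 14 of 15 animals) with all libraries and -1.47 ± 0.18 (adjusted p = 2.68e-09) with the 71. NOLC1 (ENSSSCG00000010576) followed the same order, with 224, 140, 122 and 116 CPM in the same 4 animals and 39.6 to 69 CPM in the other 14, against 57.6 to 197 CPM at Baseline (median 92.4). Its change was -0.63 ± 0.22 (adjusted p = 0.0241) with all libraries, lost when FS animal 2, 6 or 11 was left out, and -1.04 ± 0.13 (adjusted p = 5.28e-09) with the 71.

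Between FR8 and FR20 in FS animals 0 of 25 members passed with all libraries, where 3.07% of all genes rose and 3.33% fell. At an unadjusted p under 0.05 there were 5, and DESeq2 and edgeR's likelihood ratio test each called 1. With the 71 libraries 14 fell and 1, HEATR1, rose (0.33 ± 0.11, adjusted p = 0.0167), against 15.4% and 16.5% of all genes. GNL3 (-1.09 ± 0.17), RRP9 (-0.85 ± 0.14) and NOLC1 (-0.73 ± 0.13) had the largest falls.

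**Figure D3:**
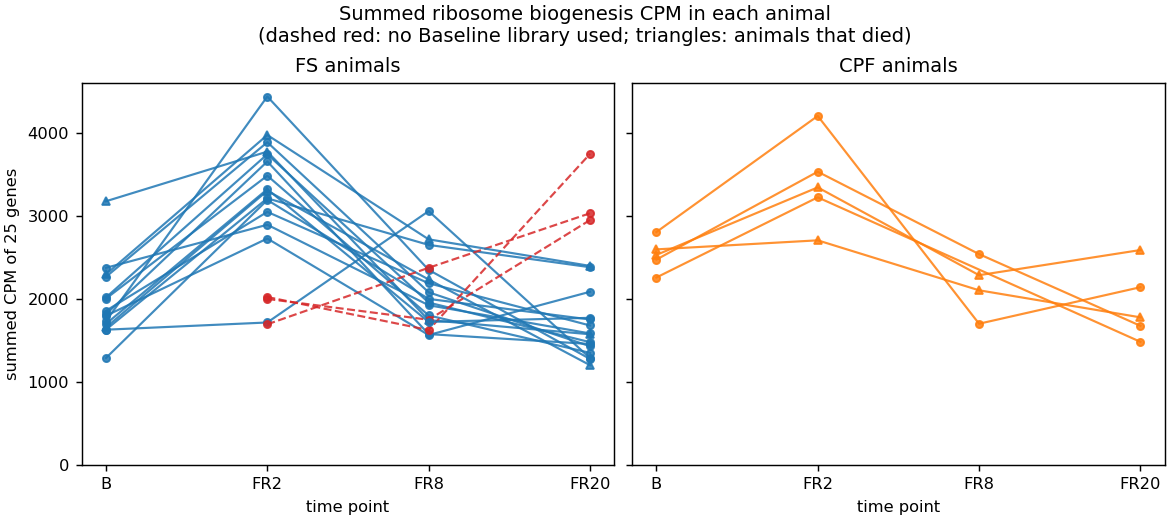
Summed CPM of the 25 ribosome biogenesis factors in each animal at B, FR2, FR8 and FR20, with FS and CPF animals apart, triangles for animals that died and dashed red lines for FS animals 17, 19 and 21. In most animals the sum peaks at FR2, to as much as 4437 in FS animals and 4203 in CPF animals, while the dashed lines rise between the libraries labelled FR8 and FR20; the line of CPF animal 3 has no FR8 point.

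The changes were also taken animal by animal. In each of the 15 FS animals with a Baseline library the 25 within-animal changes at FR2 were reduced to their median, which was above 0 in 14 animals and ran from -0.15, in FS animal 10, to 1.35, with a median of 0.75. At FR8 the median change was above 0 in 10 of 15 animals (-0.86 to 0.92) and at FR20 in 6 of 15 (-0.92 to 0.57). Counted over 375 pairs of a gene and an FS animal, the highest of the 4 levels was at FR2 in 275, at FR8 in 60, at FR20 in 21 and at B in 19. LYAR and UTP20 were the 2 members most often highest at FR8, in 9 and 8 of 15 animals.

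The summed CPM of the 25 genes gives the same course on a linear scale. In FS animals it was 1286 to 3175 at Baseline (median 1813), 1692 to 4437 at FR2 (median 3256), 1563 to 3056 at FR8 (median 1976) and 1200 to 3745 at FR20 (median 1630). Over the libraries most like their labelled time the FS medians were 1855, 3402, 1998 and 1477. FS animals 17, 19 and 21 ran the other way: their sums were 1692 to 2021 in the libraries labelled FR2 and 2948 to 3745 in those labelled FR20, while the other 15 were at 1714 to 4437 and 1200 to 2396. In the 15 FS animals 0 to 6 of 25 members were higher at FR20 than at FR2, and in FS animals 17, 19 and 21 it was 24, 24 and 21.

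In CPF animals, of which there were 5, fewer members passed. At FR2 1 of 25 members rose and 0 fell, where 2% of all genes rose and 1.4% fell, but 22 of 25 were above 0, with a median of 0.34 against -0.02 over all genes. BYSL (ENSSSCG00000026752), the member called, stood at 37.4, 67.5, 52.1, 106 and 51.8 CPM at Baseline in CPF animals 3, 7, 8, 13 and 18, and at 94.6, 128, 77.1, 172 and 164 CPM at FR2. Each animal was higher at FR2 and the Baseline value of CPF animal 13 was the 1 that overlapped (1.02 ± 0.31, 2.02-fold, adjusted p = 0.0477). This call was lost when any of the 5 CPF animals was left out, and stood at an adjusted p of 9.41e-04 with the 71 libraries. NOP58 was at 52, 66.1, 53.6, 49.3 and 45.1 CPM at Baseline and 85.9, 94.5, 64.7, 101 and 76.4 CPM at FR2. It was higher in 5 of 5 animals and did not pass (0.67 ± 0.24, adjusted p = 0.104). WDR12 went from 15, 16.2, 21.3, 22.1 and 18.5 CPM to 26.9, 29.1, 19.3, 35.3 and 25.9 CPM, higher in all but CPF animal 8 (0.55 ± 0.19, adjusted p = 0.0877). The 71 libraries gave 6 members that rose at FR2, against 7.21% of all genes, namely BYSL, NOP58, NPM1, PNO1, WDR12 and NOP16.

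At FR8 in CPF animals, where 6.31% of all genes rose and 6.99% fell, 1 member rose and 1 fell, the median was -0.33 against 0.04 over all genes, and both called members passed at 2-fold, as 8.83% of all genes did. LYAR was at 7.13, 6.01, 10.4, 4.75 and 10.6 CPM at Baseline and at 14.2, 10.4, 16.5 and 18.3 CPM at FR8 in CPF animals 7, 8, 13 and 18. CPF animals 7, 13 and 18 were higher than their own Baseline, and CPF animal 8 was nearly level with it (10.42 CPM at FR8 and 10.39 at Baseline). The value of CPF animal 8 was the lowest at FR8 and lay among the upper Baseline values. The fitted change was 1.07 ± 0.35 (2.1-fold, adjusted p = 0.0351). NOB1 was at 114, 70, 90.7, 52.7 and 146 CPM at Baseline and at 57.1, 39.6, 25.3 and 38.4 CPM at FR8. It was lower in 4 of 4 animals with a narrow overlap (-1.30 ± 0.40, 0.406-fold, adjusted p = 0.0224). The LYAR call was lost without CPF animal 3, 7, 13 or 18 and the NOB1 call without CPF animal 8 or 18. RRP12 was at 35.8, 49, 33, 37.3 and 32.1 CPM at Baseline and at 23.7, 27.9, 16 and 26.8 CPM at FR8, with no overlap, but did not pass (-0.71 ± 0.33, adjusted p = 0.144). In the fit to the 71, LYAR rose and 4 members fell (12.2% of all genes in each direction): NOB1, DDX21, RRP12 and POLR1C.

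At FR20 in CPF animals 0 of 25 members passed, where 0.278% of all genes rose and 0.615% fell. At an unadjusted p under 0.05 there were 5, DESeq2 and the likelihood ratio test called 0, and 22 of 25 were below 0 with a median of -0.41 against 0.05 over all genes. DDX21 went from 194, 241, 282, 250 and 223 CPM at Baseline to 96.9, 123, 105, 249 and 122 CPM in CPF animals 3, 7, 8, 13 and 18. The value of 249 was that of the library of CPF animal 13 that was most like Baseline, and the other 4 were below every Baseline value (-0.84 ± 0.34, adjusted p = 0.196). POLR1C went from 50.8, 57.3, 48.2, 77.4 and 60.2 CPM to 28.7, 56.8, 30.4, 41.7 and 30.4 CPM (-0.67 ± 0.27, adjusted p = 0.197), and NOP2 from 49.6, 57.8, 67.9, 81.6 and 69.3 CPM to 37.1, 42.1, 31, 42.9 and 43.5 CPM (-0.73 ± 0.31, adjusted p = 0.222). Both were lower in 5 of 5 animals, and NOP2 without overlap. With the 71 libraries 8 members fell and 0 rose, against 7.92% and 7.24% of all genes, led by NOB1 (-1.27 ± 0.27, adjusted p = 6.53e-04), GNL3 (-1.35 ± 0.30, adjusted p = 0.00106) and DDX21 (-1.05 ± 0.24, adjusted p = 0.00158). The 71 hold 4 CPF libraries at FR20. The CPF library left out there, of CPF animal 13, had the highest CPF FR20 values of these 3 genes (159, 123 and 249 CPM).

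From FR2 to FR8 in CPF animals 2 members fell and 0 rose, where 3.17% of all genes fell and 4.05% rose. The median was -0.57 against 0.02 over all genes, 22 of 25 were below 0, 14 had an unadjusted p under 0.05, and DESeq2 and the likelihood ratio test called 7 and 6. RRP12 fell from 38.6, 39.6, 44.1, 67.8 and 57.6 CPM (-1.12 ± 0.33, adjusted p = 0.0325) and NOB1 from 79.4, 114, 93, 106 and 76.9 CPM (-1.24 ± 0.39, adjusted p = 0.0402) to the FR8 levels above, both without overlap. Leaving out CPF animal 7, 13 or 18 ended both calls, and leaving out CPF animal 8 that of NOB1. Among the 71 libraries 13 fell and LYAR rose (0.76 ± 0.23, adjusted p = 0.0118), against 11.1% and 11.4% of all genes. From FR8 to FR20 0 of 25 passed, where 0.00732% of all genes rose and 0.0146% fell, with 2 at an unadjusted p under 0.05 and 0 by DESeq2 and by the likelihood ratio test.

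Whether prefeeding changed the course was tested as the difference of the changes from Baseline, CPF minus FS. For FR2vB, FR8vB and FR20vB 0 of 25 members passed and 0% of all genes did, with 2, 2 and 3 members at an unadjusted p under 0.05 and 0 by DESeq2 and by the likelihood ratio test. The median differences were -0.27, -0.36 and -0.34, with 21, 24 and 23 of 25 members below 0. The smallest unadjusted p were those of HEATR1 at FR2 (-0.59 ± 0.22, p = 0.00821, adjusted p = 1 by edgeR's quasi-likelihood test), RRP12 at FR8 (-1.00 ± 0.38, p = 0.00949, adjusted p = 0.999) and HEATR1 at FR20 (-0.65 ± 0.22, p = 0.0039, adjusted p = 1).

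The 2 feeding groups were set side by side at Baseline, which those differences share. All 25 members were higher in CPF animals at Baseline, by 0.09 to 0.68 with a median of 0.34, but 0 passed, where 0.0342% of 11688 genes did, and 14 had an unadjusted p under 0.05. DESeq2 and the likelihood ratio test called 0. RRP12 was at 32.1 to 49 CPM in the 5 CPF libraries and 18.3 to 46.1 CPM in the 15 FS libraries, of which 46.1 was FS animal 2 (0.68 ± 0.17, adjusted p = 0.164). RRS1 was at 25.7, 29, 22.8, 29.6 and 26.3 CPM in CPF animals and 8.79 to 28.3 CPM in FS animals, median 16 (0.66 ± 0.19, adjusted p = 0.251). FS animal 2 had the highest Baseline level of many members, and without it 1 member, RRP12, passed. At FR2, FR8 and FR20 0 members and 0% of all genes passed, with median differences of 0.11, 0.06 and -0.02, with 1, 0 and 0 members at an unadjusted p under 0.05, and with 0 by the other 2 tests.

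Animals that died were then compared with animals that lived, in fits with a term for the feeding group. At each of the 4 times 0 members and 0% of all genes passed by edgeR's quasi-likelihood test, and DESeq2 and the likelihood ratio test called 0. The median differences, died minus lived, were 0.18, 0.07, 0.05 and -0.01 at B, FR2, FR8 and FR20, with 8, 0, 0 and 0 members at an unadjusted p under 0.05. The smallest adjusted p was that of DDX21 at Baseline (0.63 ± 0.19, adjusted p = 0.331). With 5 animals that died, this does not show that the levels were alike.

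**Figure D4:**
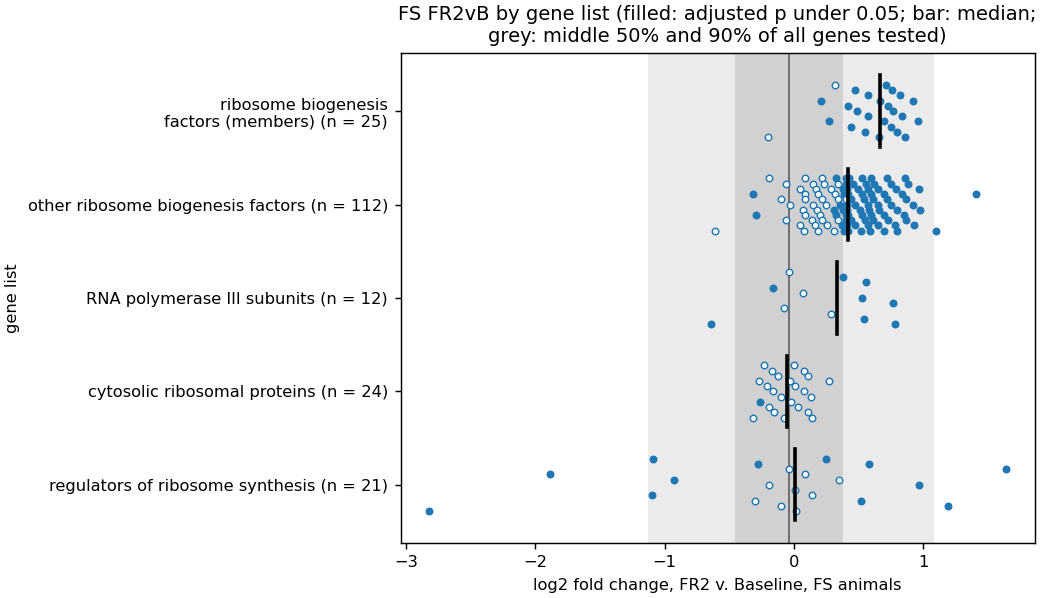
Log2 fold change from B to FR2 in FS animals of each gene (points, filled where the adjusted p was under 0.05) in 5 lists, with a bar at each list's median, and grey bands for the middle 50% (-0.45 to 0.37) and 90% (-1.12 to 1.08) of all 13667 genes. The medians run from 0.67 for the 25 members and 0.42 for 112 other factors to -0.05 for the 24 measured ribosomal proteins.

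Most other factors of the pathway also rose at FR2 in FS animals. Of 112 further ribosome biogenesis factors 74 rose and 2 fell, where 20.3% of all genes rose and 21.1% fell, with a median of 0.42 for these factors. EFL1 and SBDS, which together release the anti-association factor from new large subunits, had the smallest adjusted p among those that rose. SBDS stood at 90.9 to 153 CPM at Baseline (median 121) and 109 to 308 CPM at FR2 (median 223), a change of 0.88 ± 0.13 (adjusted p = 6.36e-07). EFL1 was at 1.81 to 14.5 CPM and 5.74 to 33.1 CPM (medians 6.93 and 18.1) and rose in 15 of 15 animals (1.41 ± 0.20, adjusted p = 2.17e-07). Both rose in CPF animals too, SBDS by 0.91 ± 0.24 (adjusted p = 0.0214) and EFL1 by 1.21 ± 0.36 (adjusted p = 0.043). There 3 of 112 rose and 0 fell, where 2% of all genes rose and 1.4% fell. The 2 that fell in FS animals were TSR3, an enzyme that modifies the small subunit rRNA (-0.32 ± 0.08, adjusted p = 6.88e-04), and NOP53, a large subunit factor (-0.29 ± 0.12, adjusted p = 0.0402).

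At FR8 25 of the 112 were higher, a share near the 19.9% of all genes, and 3 were lower in FS animals, led by ZNHIT6 and RUVBL1, which assemble box C/D snoRNPs (1.13 ± 0.16 and 0.67 ± 0.12, adjusted p = 6.66e-07 and 1.12e-05), and by NOP53 and the exosome subunit EXOSC9 on the other side (-0.69 ± 0.12 and -0.92 ± 0.28, adjusted p = 1.06e-05 and 0.00608). EXOSC9 also read 0 in the FR2 and FR8 libraries of FS animal 11, and its change without them was -0.72 ± 0.15 (adjusted p = 8.34e-05). At FR20 15 were higher and 11 lower, shares below the 17.4% and 16.4% of all genes, led by the kinase RIOK3 and the processome protein WDR36 (0.77 ± 0.17 and 0.59 ± 0.13, adjusted p = 3.09e-04 and 4.41e-04) and by NOP53 and the snoRNP assembly factor NUFIP1 (-0.61 ± 0.12 and -1.02 ± 0.21, adjusted p = 6.03e-05 and 1.40e-04). The list gave more calls with the 71 libraries. These factors were themselves among the 13642 genes by which the 71 were chosen, so these counts are not independent of that choice. At FR2 86 were higher and 3 lower, where 23.9% of all genes rose and 28.1% fell. At FR8 37 were higher and 19 lower (27.9% and 26.8% of all genes). At FR20 15 were higher and 49 lower (23.6% and 21% of all genes). In CPF animals, with all libraries, 6 of the 112 rose and 3 fell at FR8, shares below the 6.31% and 6.99% of all genes. Among those that rose were ZNHIT6 at 1.11 ± 0.31 (adjusted p = 0.014) and WDR36 at 0.89 ± 0.26 (adjusted p = 0.0161). Among those that fell were NOP53 at -0.81 ± 0.23 (adjusted p = 0.0174) and the exosome subunit EXOSC6 at -0.97 ± 0.33 (adjusted p = 0.0378). At FR20 0 of 112 passed in CPF animals, with 18 at an unadjusted p under 0.05.

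Of the cytosolic ribosomal proteins, which the members assemble, 24 were measured, and most of the class had no row under its symbol in the counts. Those 24 were the contrast to the other factors at FR2 in FS animals. Of them 0 rose and 1 fell, where 20.3% of all genes rose and 21.1% fell, and 2 had an unadjusted p under 0.05. The median change was -0.05, with a span from RPS3A at -0.32 ± 0.35 to FAU at 0.27 ± 0.19. RPS3A, like DKC1, read 0 in the FR2 and FR8 libraries of FS animal 11, and was at -0.12 ± 0.10 without them. At FR8 1 rose, FAU (0.89 ± 0.19, adjusted p = 1.19e-04), and 4 fell, where 19.9% of all genes rose and 19.5% fell. At FR20 0 rose and 7 fell, down to RPS28 at -0.41 ± 0.11 (adjusted p = 0.0022), where 17.4% of all genes rose and 16.4% fell. In CPF animals 0 of 24 passed at any of the 3 times. Many ribosomal protein genes have near-identical pseudogene copies, so their counts are less certain than those of the members. Of 12 RNA polymerase III subunits and factors, which make the small untranslated RNAs, 6 rose and 2 fell at FR2 in FS animals, with a median of 0.34. The shares of all genes there were 20.3% and 21.1%.

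**Figure D5:**
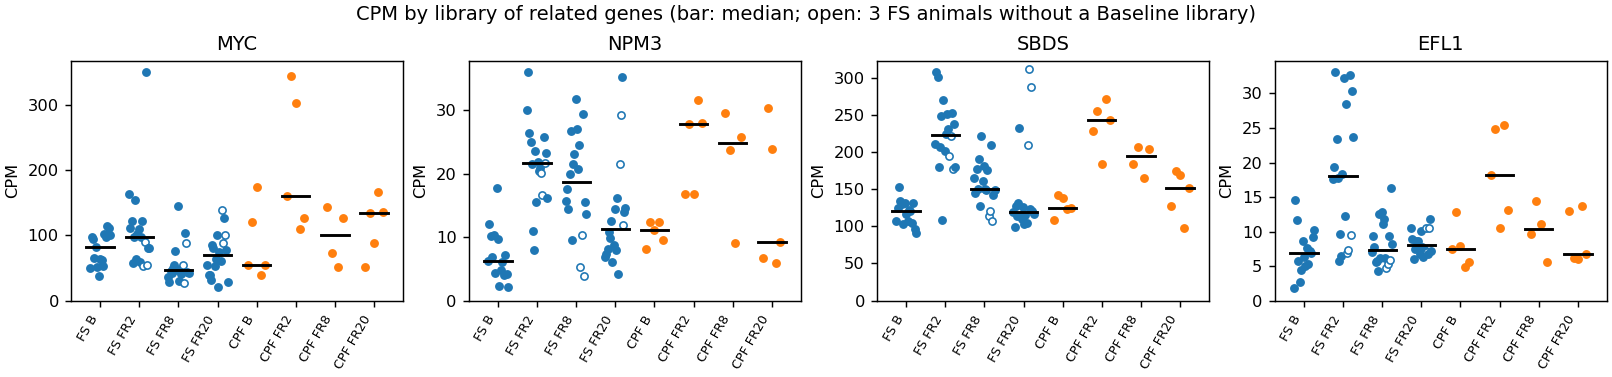
CPM of MYC, NPM3, SBDS and EFL1 in each FS and CPF library at B, FR2, FR8 and FR20, with a bar at the median and open circles for FS animals 17, 19 and 21. The MYC median moves from 82.1 to 97.2 between B and FR2 in FS animals and from 54.9 to 161 in CPF animals, and NPM3 from 6.16 to 21.6 in FS animals.

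Of 21 regulators of ribosome synthesis 6 rose and 6 fell at FR2 in FS animals, shares near the 20.3% and 21.1% of all genes, with a median of 0.01. MYC, the transcription factor that drives many ribosome biogenesis genes, was at 37.2 to 114 CPM at Baseline (median 82.1) and 52.8 to 350 CPM at FR2 (median 97.2) in FS animals, and did not pass (0.35 ± 0.21, adjusted p = 0.175, higher in 11 of 15). At FR8 MYC was lower (-0.63 ± 0.21, adjusted p = 0.0118) and at FR20 it was at -0.31 ± 0.21 (adjusted p = 0.251). In CPF animals MYC went from 38.8 to 174 CPM (median 54.9) to 109 to 344 CPM (median 161) at FR2, higher in 5 of 5 (1.28 ± 0.37, adjusted p = 0.0381), and was at 0.11 ± 0.40 and 0.56 ± 0.38 at FR8 and FR20 (adjusted p = 0.888 and 0.478).

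NPM3, a relative of NPM1, was above Baseline at all 3 times in FS animals (1.64 ± 0.27, 1.39 ± 0.26 and 0.92 ± 0.27, adjusted p = 2.18e-06, 2.82e-05 and 0.00624), as was MDM2, the p53 ligase that free ribosomal proteins bind (0.97 ± 0.19, 0.85 ± 0.18 and 1.07 ± 0.18, adjusted p = 3.44e-05, 1.52e-04 and 6.94e-06). The MAX partner MXD3, which opposes MYC, was lower at all 3 (-1.09 ± 0.19, -1.16 ± 0.19 and -1.20 ± 0.19, adjusted p = 4.43e-06, 2.86e-06 and 1.05e-06). So was MXI1, a further MAX partner (-0.93 ± 0.23, -1.41 ± 0.24 and -1.26 ± 0.23, adjusted p = 6.92e-04, 5.66e-06 and 1.74e-05). MXD4 was lower at FR2 and FR8 (-0.28 ± 0.11 and -0.34 ± 0.11, adjusted p = 0.0386 and 0.0149), and the MAX partner MGA was higher at FR8 (0.96 ± 0.36, adjusted p = 0.0283). Another such partner, MXD1, rose at FR2 (1.19 ± 0.40, adjusted p = 0.0128), and the MYC relative MYCN was the regulator with the lowest value at FR2 and FR20 (-2.82 ± 0.50 and -2.79 ± 0.47, adjusted p = 8.08e-06 and 5.77e-06), and was also lower at FR8 (-2.04 ± 0.49, adjusted p = 6.71e-04). SESN2, a stress protein that restrains the growth kinase mTOR, was also lower at all 3, by more than MXD3 (-1.89 ± 0.32, -2.53 ± 0.34 and -2.19 ± 0.32, adjusted p = 5.07e-06, 2.28e-07 and 3.91e-07). In CPF animals MYC was the 1 regulator that passed at FR2. At FR8 MDM2 rose there (1.10 ± 0.35, adjusted p = 0.0287), and 3 fell. They were MLST8, a subunit of the mTOR complexes (-0.77 ± 0.24, adjusted p = 0.0286), and, as in FS animals, MXI1 (-1.39 ± 0.46, adjusted p = 0.0369) and MXD3 (-1.12 ± 0.38, adjusted p = 0.0376).

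Markers of other cells moved over the same times. In FS animals the summed CPM of 8 neutrophil markers, of which CSF3R was at 0 throughout, was 5.45 to 27.2 at Baseline (median 6.96), 8.01 to 95.5 at FR2 (median 22.7), 3.81 to 42.8 at FR8 (median 14.6) and 5.16 to 51.6 at FR20 (median 18.1), and 4 of 6 tested markers rose at FR2. The 14 hepatocyte markers summed to 161478 to 233350 CPM at Baseline (median 209530), 110379 to 206857 at FR2 (median 183318), 118123 to 210730 at FR8 (median 160044) and 78224 to 184305 at FR20 (median 114407), with 3 of 14 higher and 6 lower at FR2. The 16 cell cycle genes in the counts, with PLK1, MCM5 and RRM2 at 0, had medians of 86.4, 72.4, 64 and 97.2, and 0 of 13 tested rose and 3 fell at FR2. The summed CPM of 4 cholangiocyte markers was 29.7 to 119 at Baseline, 19.2 to 573 at FR2, 18 to 423 at FR8 and 27.8 to 849 at FR20 in FS animals (medians 44.8, 71.6, 55.1 and 127), and 44.5 to 75.4 at Baseline and 105 to 204 at FR2 in CPF animals, without overlap, where 1 of 4 rose in FS animals and 0 in CPF animals. At FR2 20.3% of all genes rose and 21.1% fell in FS animals, and 2% and 1.4% in CPF animals. The 3 hepatocyte markers that were higher and the 3 cell cycle genes that fell are near those FS shares. The part of the marker shifts in the members' changes was not tested.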

How the data were processed

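Liver biopsies of 23 pigs gave 92 libraries of oligo-dT selected RNA, sequenced as single reads. The authors made the deposited counts per gene, and per the labels used CASAVA 1.8.2, TopHat 1.5.0, SAMtools and HTSeq with the Sscrofa10.2 genome and edgeR 3.2.4 for testing. The HTSeq mode and strand setting are not given in the sources used here, so reads of overlapping or antisense genes cannot be told apart, and TopHat's treatment of near-identical copies affects such genes. No row without a gene was in the table.

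From these counts, 88 libraries were fitted with edgeR 4.0.16 (R 4.3.3, limma 3.58.1): TMM scaling, a filter that kept genes whose CPM summed to 10 or more, a term for each animal and for each feeding group and time, and the quasi-likelihood test with Benjamini-Hochberg adjustment over all tested genes. A gene passed at an adjusted p under 0.05. Comparisons between feeding groups or outcomes at a single time used the libraries of that time, and those between outcomes had a term for the feeding group. CPM of single genes and the summed CPM of the members were on TMM-scaled library sizes. The CPM of albumin, of the marker sums and of the filter were on library totals without TMM scaling. Changes within animals were on log2 CPM with a prior count of 2, and standard errors were taken from the fold change and its F value. The animals are separate animals and their samples are paired by animal: residuals of the same animal correlated at a median of 0.205 (94 of 126 pairs over 0.1), those of different animals at -0.024 (543 of 2391 pairs). Library totals of 6877117 to 16613261 counts limit the precision of the members with the fewest reads, such as LYAR. The fit was tested on simulated data. DESeq2 1.42.0 was an alternative among 11 planned ones, and 3 more were added after the data were seen. Python 3.11.15 and matplotlib 3.10.9 made the tables and figures.

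The members and gene lists were chosen with earlier results of these data known. In each comparison with Baseline, values in full were given to the 3 members of lowest adjusted p in each direction, or, where fewer than 3 passed, to the 3 with the smallest unadjusted p. Of the other factors and the regulators the 2 of each direction with the smallest adjusted p were named, with MYC throughout, and of the ribosomal proteins the highest and the lowest; other genes and values named beside a result were chosen after they were seen. Symbols came from the name table and, for 700 identifiers, from the study's own tables. Promoter and protein sequences were not analysed here. The study's tables of its own comparisons were not used as values.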

Additional observations from a re-analysis of the deposited data

Results flagged for a closer look

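Of 100 groups of 4 or 5 CPF libraries looked at, 5 held a value whose gap to the nearest of the others was over Dixon's 95% critical value for its group, and chance gives about 1 in 20. POLR1A was at 46.8 CPM at Baseline in CPF animal 3, where the other 4 animals were at 34 to 35.9 CPM. NOP58 was at 89.9 CPM at FR20 in CPF animal 7, against 41.8 to 51.1 CPM in the others, and PES1 at 129 CPM in the same library, against 79.2 to 87 CPM. GNL3 was at 56.4 CPM at FR8 in CPF animal 13, against 101 to 111 CPM. DDX21 was at 249 CPM in the library of CPF animal 13 labelled FR20, against 96.9 to 123 CPM, and that library was the CPF library most like another time than its label.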

How the results depend on the processing

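No member with a call changed its direction under any alternative. The counts of members called in each comparison stayed within 1.5 times the reported count except as follows. With DESeq2 and with the likelihood ratio test FS FR20vFR8 gave 1 each and CPF FR8vFR2 gave 7 and 6. Without the filter on low counts CPF FR2vB gave 0. With 91 libraries, the 3 Baseline libraries without albumin included, CPF FR2vB, FR8vB and FR8vFR2 gave 0. Without the 5 animals that died FS FR20vB gave 4 (3 higher, 1 lower) and CPF FR2vB, FR8vB and FR8vFR2 gave 0. Without the animal terms (no replicate block, where the reported fit has the block) FS FR20vB gave 4 (2 higher, 2 lower), FS FR20vFR8 gave 1, CPF FR2vB 0 and CPF FR8vB 1. With only the libraries of the CPF group its FR2vB, FR8vB, FR20vB and FR8vFR2 gave 3, 6, 3 and 14. The other alternatives were chosen after the data were seen: without the 2 libraries of FS animal 11 CPF FR8vFR2 gave 4; without FS animals 17, 19 and 21 FS FR20vFR8 gave 12, CPF FR2vB 3 and CPF FR8vFR2 12; with the 71 libraries FS FR8vB gave 15, FR20vB 14 and FR20vFR8 15, and CPF FR2vB 6, FR8vB 5, FR20vB 8 and FR8vFR2 14. Requiring 2-fold left FS FR2vB, FR8vB and FR20vB with 0 and FR8vFR2 with 3. The cause of these differences was not tested, except that the last rule is stricter by construction.

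Leaving out 1 animal of the group gave 22 to 24 members for FS FR2vB, 6 to 9 for FR8vB, 4 to 9 for FR20vB, 14 to 18 for FR8vFR2 and 0 to 5 for FR20vFR8. For CPF it gave 0 to 1 for FR2vB, FR8vB and FR20vB, 0 to 2 for FR8vFR2 and 0 for FR20vFR8. FS FR20vB gave 5 without FS animal 1 and 4 without FS animal 6, and FS FR20vFR8 gave 5 without FS animal 17, 2 without 19 or 21, and 1 without 9 or 20. CPF FR20vB gave 1, NOB1, without CPF animal 13. CPF minus FS at Baseline gave 0 to 1 and the remaining comparisons 0. Changes in the other feeding group were not refitted. The shares of all genes were not kept for these fits, so the counts stand without them. With 5 CPF animals and 5 deaths, comparisons that gave 0 cannot show that levels were alike.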

Other observations

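Among the other cell type lists, 7 macrophage markers were tested, and in FS animals 0 rose and 4 fell at FR2, with a median of -0.37, while CLEC4F was at 0 in every library. Of 11 markers of T and NK cells 0 rose and 3 fell at FR2 and 0 rose and 8 fell at FR20 in FS animals, with medians of -0.31 and -0.76. Of 4 erythroid markers 0 rose and 3 fell at FR8, with a median of -1.41. Of 6 endothelial markers 2 rose and 2 fell at FR2, and of 8 stellate cell and fibroblast markers 1 rose and 3 fell. In CPF animals 6 neutrophil markers had a median of 3.99 at FR2, of which 3 rose, and 14 hepatocyte markers a median of -0.89 at FR20, of which 4 fell. Over all genes in FS animals 20.3% rose and 21.1% fell at FR2, 19.9% and 19.5% at FR8, and 17.4% and 16.4% at FR20. For CPF animals 2% of all genes rose at FR2 and 0.615% fell at FR20.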
